A study of Mus musculus with 24 samples.

Results

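The BCL2 family genes were followed as 35 regions of the 53386 listed, namely every region that overlapped Bcl2, Bcl2l1, Mcl1, Bax, Bad, Bbc3, Bcl2l11 or Bnip3 or lay within 2 kb of one of them in the RefSeq annotation of build mm10. All 8 genes had at least 1 region, from 1 at Mcl1 to 13 at Bcl2l1. H3K9me2, the dimethylated lysine 9 of histone H3, was measured by chromatin immunoprecipitation and sequencing in hearts of 6 C57BL6 mice aged 12 months, 3 labelled female and 3 labelled male. In input, 0.126% to 0.180% of counts lay on chromosome X in the labelled females and 0.0623% to 0.0818% in the labelled males. Mouse 19, a labelled female, also held 45 to 129 counts per library in listed regions of chromosome Y. The labelled males held 24 to 181 there and the other labelled females 0 to 5, and the reason was not tested. All 6 mice had undergone ischemic preconditioning, which here was 4 cycles of 5 minutes of coronary ligation with 5 minutes of reflow, closed by 30 minutes of reflow. From each heart came H3K9me2 and input libraries of the area at risk (AAR), the muscle fed by the tied artery, and H3K9me2 and input libraries of the remote myocardium (RM), which makes 4 groups of 6 libraries. Both biopsies came from preconditioned hearts, so RM is muscle of the same treated animal and no untreated heart; sham hearts were not analysed here.

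The BCL2 family sets whether a cell dies through its mitochondria. The guardians BCL2, BCL-xL (from Bcl2l1) and MCL1 hold back the effector BAX, which otherwise opens the outer mitochondrial membrane and releases cytochrome c. BH3-only proteins tip this balance: BAD, PUMA (from Bbc3) and BIM (from Bcl2l11) bind the guardians, and BNIP3, a related protein induced by hypoxia, also marks mitochondria for removal. H3K9me2 is placed mainly by the enzymes EHMT1 and EHMT2, spreads over broad stretches of silent chromatin, and is usually low at the start sites of genes in use. The biopsies are mixed tissue, so a change in the cells present and a change of the mark per cell cannot be told apart.

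Values are given in CPM, the counts of a region scaled to its library's total over the listed regions, which was 416683 to 1196368 counts for AAR H3K9me2, 443261 to 981763 for RM H3K9me2, 1286383 to 2478668 for AAR input and 1405503 to 1770520 for RM input. This scaling hides any change of the mark shared by the whole genome. The H3K9me2 libraries were thin at single regions: the region at the Bcl2l1 start held 1 to 9 counts per H3K9me2 library in either biopsy. Of the 35 regions, 3 lay wholly inside another listed region and held 0 counts in all 24 libraries, and 2 more were too low to test against input. Each of the 8 genes had 1 region over a start site, called its start-site region here. Listed regions covered from 5.50% of the length of Bcl2 to 81.9% of Bbc3, so most of Bcl2 was not measured.

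The promoters in the start-site regions ranged from rich to average in G and C. Over the 250 bases before each start in RefSeq (GRCm38.p6), GC content was 74.8% at Bcl2, 72.4% at Bnip3, 64.4% at Mcl1, 54.0% at Bax and 53.2% at the Bcl2l1 start inside its region, beside a median of 52.4% over 32851 promoters. The other Bcl2l1 starts had 47.6% and 48.4%, the lowest of the family, and Bad, Bcl2l11 and Bbc3 had 62.8% to 81.6%. The ratio of observed to expected CpG was 1.03 at Bcl2, 0.90 at Bnip3, 0.77 at Bax and 0.62 at the Bcl2l1 start inside its region, beside a median of 0.37. The promoters of Bnip3, Bax and Bcl2 are shown over the 150 bases before the start because they contrast in one short motif. Capitals mark CACGTG, which holds ACGTG, the core bound by hypoxia-inducible factors, on both strands.
Bnip3, chr7:138909507-138909656, minus strand: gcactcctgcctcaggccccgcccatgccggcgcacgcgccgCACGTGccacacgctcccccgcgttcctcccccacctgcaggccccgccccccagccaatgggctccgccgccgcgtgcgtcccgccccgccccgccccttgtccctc
Bax, chr7:45466899-45467048, minus strand: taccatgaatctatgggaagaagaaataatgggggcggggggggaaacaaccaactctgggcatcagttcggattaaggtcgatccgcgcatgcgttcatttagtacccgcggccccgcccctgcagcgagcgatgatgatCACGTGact
Bcl2, chr1:106714291-106714440, minus strand: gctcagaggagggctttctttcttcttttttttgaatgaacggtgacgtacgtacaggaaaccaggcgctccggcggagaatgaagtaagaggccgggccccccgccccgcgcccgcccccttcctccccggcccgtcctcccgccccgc
ACGTG on either strand was in 16.6% of all promoters of 250 bases. It was found before Bnip3, Bax and the third start of Bbc3, and was not in the windows of the other members. The GC box GGGCGG, in 32.7% of all promoters, occurred 7 times before Bcl2, 6 times before Bnip3 and 2 times before Bax. These matches describe the letters of the reference and say nothing of binding in these hearts.

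Against input, the start-site regions of the BCL2 family were low in H3K9me2 in both biopsies. In AAR, 7 of 8 were lower than input, and in RM 8 of 8 were lower (edgeR quasi-likelihood test, two-sided, Benjamini-Hochberg adjusted p under 0.05 over all regions tested). The median log2 fold change of the 8 was -0.84 in AAR and -0.96 in RM. Regions over a start site were often low throughout the genome: 34.5% of 5570 were lower and 4.36% higher in AAR, with a median of -0.33, and 46.2% of 5544 were lower and 7.70% higher in RM, with a median of -0.39. Of the family's 22 tested regions that cover no start of their own gene, 6 were lower and 2 higher in AAR. Beside them, 8.77% were lower and 12.5% higher among 35358 regions that cover no start of any gene. Some of the 22 lie over other genes, such as Ftl1, and may cover a start there, so the 2 sets are not strictly alike. In RM 10 of the 22 were lower and 3 higher, beside 15.8% lower and 22.6% higher among 35223. Counting all 30 tested regions of the family, 13 were lower and 2 higher in AAR, beside 12.3% lower and 11.4% higher among all 40928 regions tested. In RM 18 were lower and 3 higher, beside 19.9% lower and 20.6% higher among 40767. The family's median log2 fold change was -0.41 in AAR and -0.48 in RM, and that of all regions was 0.01 in each.

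**Figure D1:**
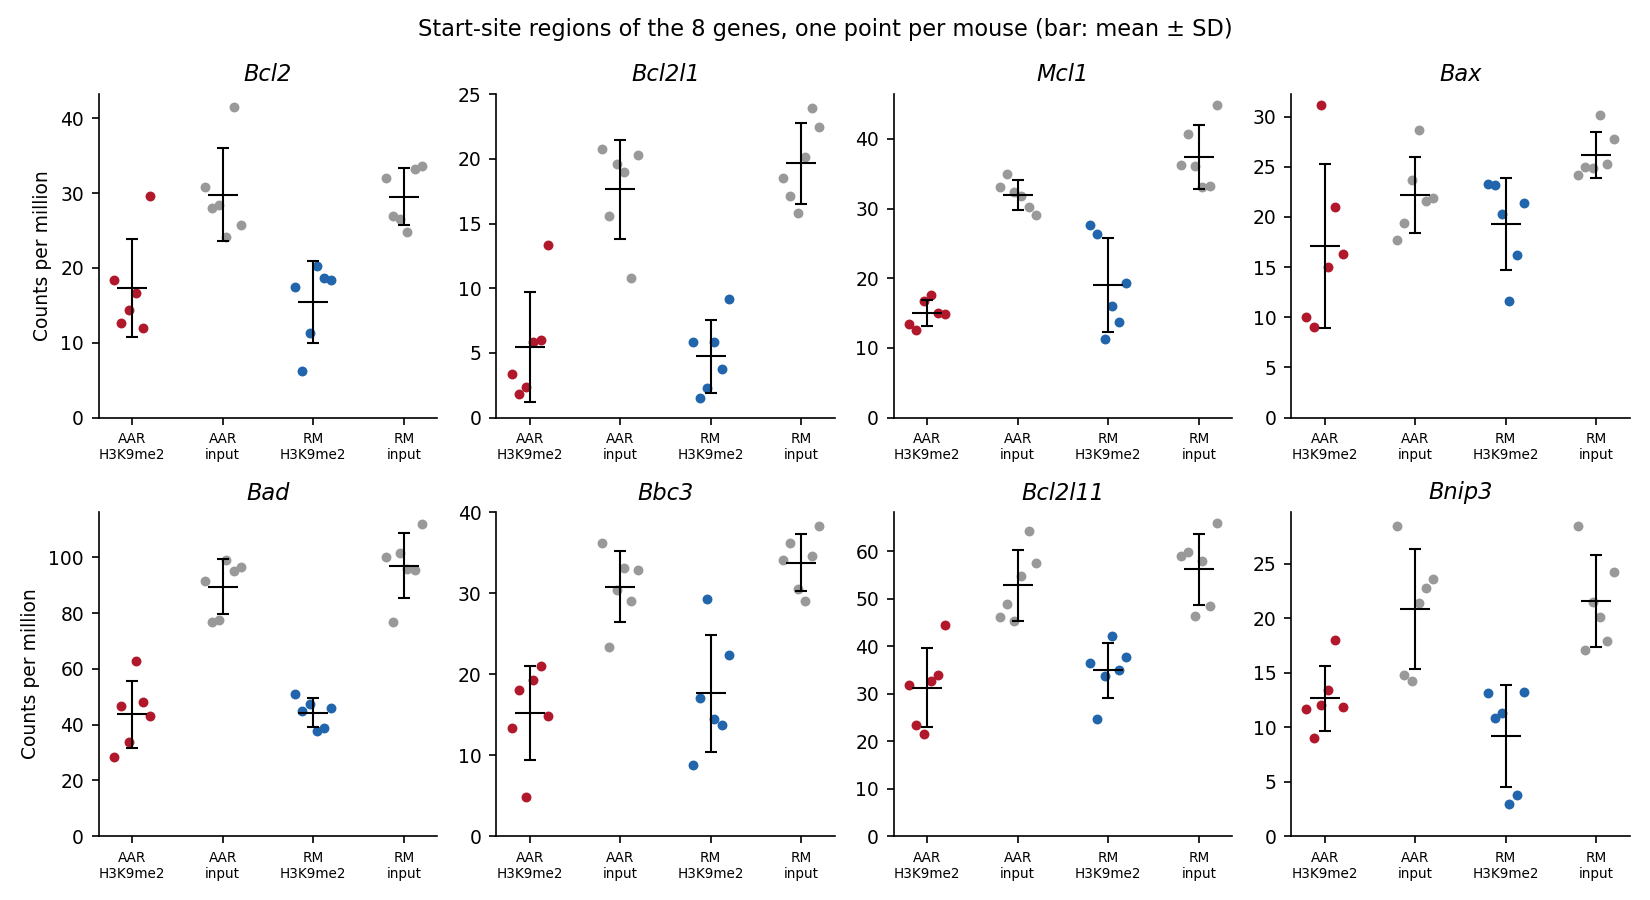
H3K9me2 and input in CPM (y axis) at the start-site region of each gene, with 1 point per mouse and the mean ± SD as a bar, for AAR on the left and RM on the right of each panel. The H3K9me2 points lie below all input points of the same biopsy at Mcl1, Bad and Bcl2l11. H3K9me2 and input overlap in AAR at Bcl2l1, Bcl2, Bax and Bnip3 and in RM at Bbc3. Bax in AAR shows the widest overlap, with H3K9me2 from 9.0 to 31.2 CPM against 17.7 to 28.6 CPM in input.

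Among the guardians, Bcl2l1 had the lowest H3K9me2 for its input. Its start-site region (chr2:152829600-152831599) held 1.80 CPM at the lowest, 4.60 at the median and 13.3 at the highest in AAR H3K9me2, against 10.8, 19.3 and 20.8 CPM in AAR input. The same order of values was 1.55, 4.78 and 9.17 CPM in RM H3K9me2, against 15.8, 19.3 and 23.9 CPM in RM input. The groups overlapped in AAR through mouse 30, the highest H3K9me2 library, and did not overlap in RM, and H3K9me2 was lower than input in 6 of 6 mice in each biopsy. The log2 fold change was -1.58 ± 0.31 (SE; adjusted p = 0.000135, edgeR) in AAR and -1.90 ± 0.28 (adjusted p = 4.78e-09, edgeR) in RM.

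Bcl2, the founding guardian, was lower at its start by less. Its start-site region (chr1:106713400-106716399) held 12.0, 15.6 and 29.7 CPM (lowest, median, highest) in AAR H3K9me2, against 24.2, 28.2 and 41.6 CPM in AAR input. RM H3K9me2 held 6.19, 17.9 and 20.3 CPM, against 24.8, 29.5 and 33.6 CPM in RM input. Again the groups overlapped in AAR through mouse 30 and were apart in RM. The log2 fold change was -0.78 ± 0.20 (SE; adjusted p = 0.00344, edgeR) in AAR, lower in 5 of 6 mice, and -0.87 ± 0.19 (adjusted p = 5.85e-05, edgeR) in RM, lower in 6 of 6. Without mouse 27 the AAR value was -0.54 and the call was lost (adjusted p = 0.0739, edgeR), and all settings tried gave -1.03 to -0.54 with adjusted p of up to that value.

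Mcl1, whose short-lived protein is needed by heart muscle cells, had 1 region (chr3:95656200-95659799), over its start. It held 12.6, 14.9 and 17.6 CPM (lowest, median, highest) in AAR H3K9me2, against 29.1, 32.2 and 35.0 CPM in AAR input. RM H3K9me2 held 11.3, 17.7 and 27.7 CPM, against 33.1, 36.2 and 44.9 CPM in RM input. H3K9me2 and input did not overlap in either biopsy. On the log2 scale H3K9me2 over input was -1.05 ± 0.18 (SE; adjusted p = 3.21e-05, edgeR) in AAR and -0.95 ± 0.17 (adjusted p = 1.26e-06, edgeR) in RM.

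The effector gene Bax stood nearest to its input. Its start-site region (chr7:45463600-45470199) held 9.0, 15.7 and 31.2 CPM (lowest, median, highest) in AAR H3K9me2, against 17.7, 21.8 and 28.6 CPM in AAR input. In RM H3K9me2 it held 11.6, 20.8 and 23.3 CPM, against 24.2, 25.1 and 30.2 CPM in RM input. The AAR groups overlapped over most of their range and the RM groups did not overlap. The log2 fold change of -0.43 ± 0.22 (SE) in AAR did not pass the test (adjusted p = 0.134, edgeR), and that of -0.44 ± 0.18 in RM passed narrowly (adjusted p = 0.0414, edgeR). The RM call was lost without mouse 23 (-0.30, adjusted p = 0.244), without mouse 27 (-0.40, adjusted p = 0.108), without mouse 30 (-0.48, adjusted p = 0.0582) and with DESeq2 (-0.43, adjusted p = 0.108). All 3 regions of Bax overlap other listed regions, and reads in such overlaps may be missing from the counts. A region beside its 3' end (chr7:45458800-45461199) was lower in AAR (-1.0, adjusted p = 0.0115, edgeR) and in RM (-1.45, adjusted p = 9.07e-06, edgeR), but it reaches Bax only through the 2 kb margin and lies over Ftl1, the ferritin light chain gene. Its AAR call was lost without mouse 17 (adjusted p = 0.055) and without mouse 27 (adjusted p = 0.0793).

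The BH3-only genes were low at their starts as well. Bad, whose protein binds BCL2 and BCL-xL when it is not phosphorylated, had the widest start-site region (chr19:6938400-6948599), which also covers Gpr137. It held 28.4, 44.9 and 62.7 CPM (lowest, median, highest) in AAR H3K9me2, against 77.0, 93.3 and 99.2 CPM in AAR input. In RM it held 37.8, 45.4 and 51.0 CPM in H3K9me2, against 76.9, 98.1 and 112 CPM in input. No H3K9me2 library reached an input library in either biopsy. The log2 fold change was -0.96 ± 0.13 (SE; adjusted p = 3.01e-07, edgeR) in AAR and -1.14 ± 0.12 (adjusted p = 7.14e-17, edgeR) in RM, the smallest adjusted p of the family in each biopsy. A second region at the 3' end of Bad (chr19:6951400-6955799), most of it over Plcb3, a phospholipase gene, was lower by more, at -2.06 ± 0.33 in AAR (adjusted p = 7.99e-06, edgeR) and -1.41 ± 0.28 in RM (adjusted p = 1.17e-05, edgeR). This second region overlaps 2 other listed regions, so reads may be missing from its counts. It held only 0, 4.73 and 7.20 CPM (lowest, median, highest) in AAR H3K9me2, against 14.3, 14.8 and 21.5 CPM in AAR input.

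Bbc3, a direct target of p53, was lower at each of its 3 tested regions in both biopsies. Its start-site region (chr7:16307400-16310999), which covers 3 annotated starts, held 4.80, 16.4 and 21.0 CPM (lowest, median, highest) in AAR H3K9me2, against 23.3, 31.7 and 36.2 CPM in AAR input. In RM it held 8.74, 15.8 and 29.3 CPM in H3K9me2, against 29.0, 34.3 and 38.4 CPM in input. The AAR groups were apart, and in RM only the highest H3K9me2 library reached the lowest input library. On the log2 scale the fold change was -0.90 ± 0.20 (SE; adjusted p = 0.000541, edgeR) in AAR and -0.97 ± 0.18 (adjusted p = 3.07e-06, edgeR) in RM. The next region downstream (chr7:16311600-16315599) was lower by -1.50 ± 0.35 in AAR and -1.04 ± 0.30 in RM, with adjusted p of 0.00124 and 0.00258 (edgeR). Its RM call was lost without mouse 30 (-0.72, adjusted p = 0.0748). This region overlaps another listed region, so reads may be missing, and it held only 0 to 6.01 CPM in AAR H3K9me2. The region at the 3' end, shared with Sae1, was lower in RM (-0.48, adjusted p = 0.00379, edgeR), while its AAR call (-0.39, adjusted p = 0.0493, edgeR) was kept in 3 of 11 other settings.

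Bcl2l11, a FOXO target, was lower at its start (chr2:128122600-128127799, shared with Acoxl) and at no other region. The start-site region held 21.6, 32.2 and 44.5 CPM (lowest, median, highest) in AAR H3K9me2, against 45.3, 51.9 and 64.3 CPM in AAR input. RM H3K9me2 held 24.8, 35.7 and 42.1 CPM, against 46.3, 58.5 and 66.1 CPM in RM input. The groups were apart in both biopsies, with log2 fold changes of -0.72 ± 0.15 (SE; adjusted p = 0.000282, edgeR) in AAR and -0.67 ± 0.13 (adjusted p = 1.5e-05, edgeR) in RM. Inside the gene, the regions 14.6 and 26.5 kb from the start had log2 fold changes of -0.10 and 0.08 in AAR and of 0.28 and -0.13 in RM, none of which passed the test.

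Bnip3, induced by low oxygen, was lower at its start in both biopsies. Its start-site region (chr7:138909200-138911399) held 9.0, 11.9 and 18.0 CPM (lowest, median, highest) in AAR H3K9me2, against 14.2, 22.1 and 28.5 CPM in AAR input. RM H3K9me2 held 2.90, 11.1 and 13.2 CPM, against 17.1, 20.8 and 28.5 CPM in RM input. The groups overlapped in AAR and not in RM. The log2 fold change was -0.66 ± 0.23 (SE; adjusted p = 0.0276, edgeR) in AAR and -1.22 ± 0.24 (adjusted p = 9.5e-06, edgeR) in RM, and the difference between them was 0.57 (95% interval -0.13 to 1.26, adjusted p = 1.00, edgeR interaction term). Without mouse 27 that difference was 0.29. The AAR call was lost without mouse 17 (-0.55, adjusted p = 0.112), mouse 23 (-0.66, adjusted p = 0.0573) or mouse 30 (-0.60, adjusted p = 0.0905), and with DESeq2 (-0.66, adjusted p = 0.0727).

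**Figure D2:**
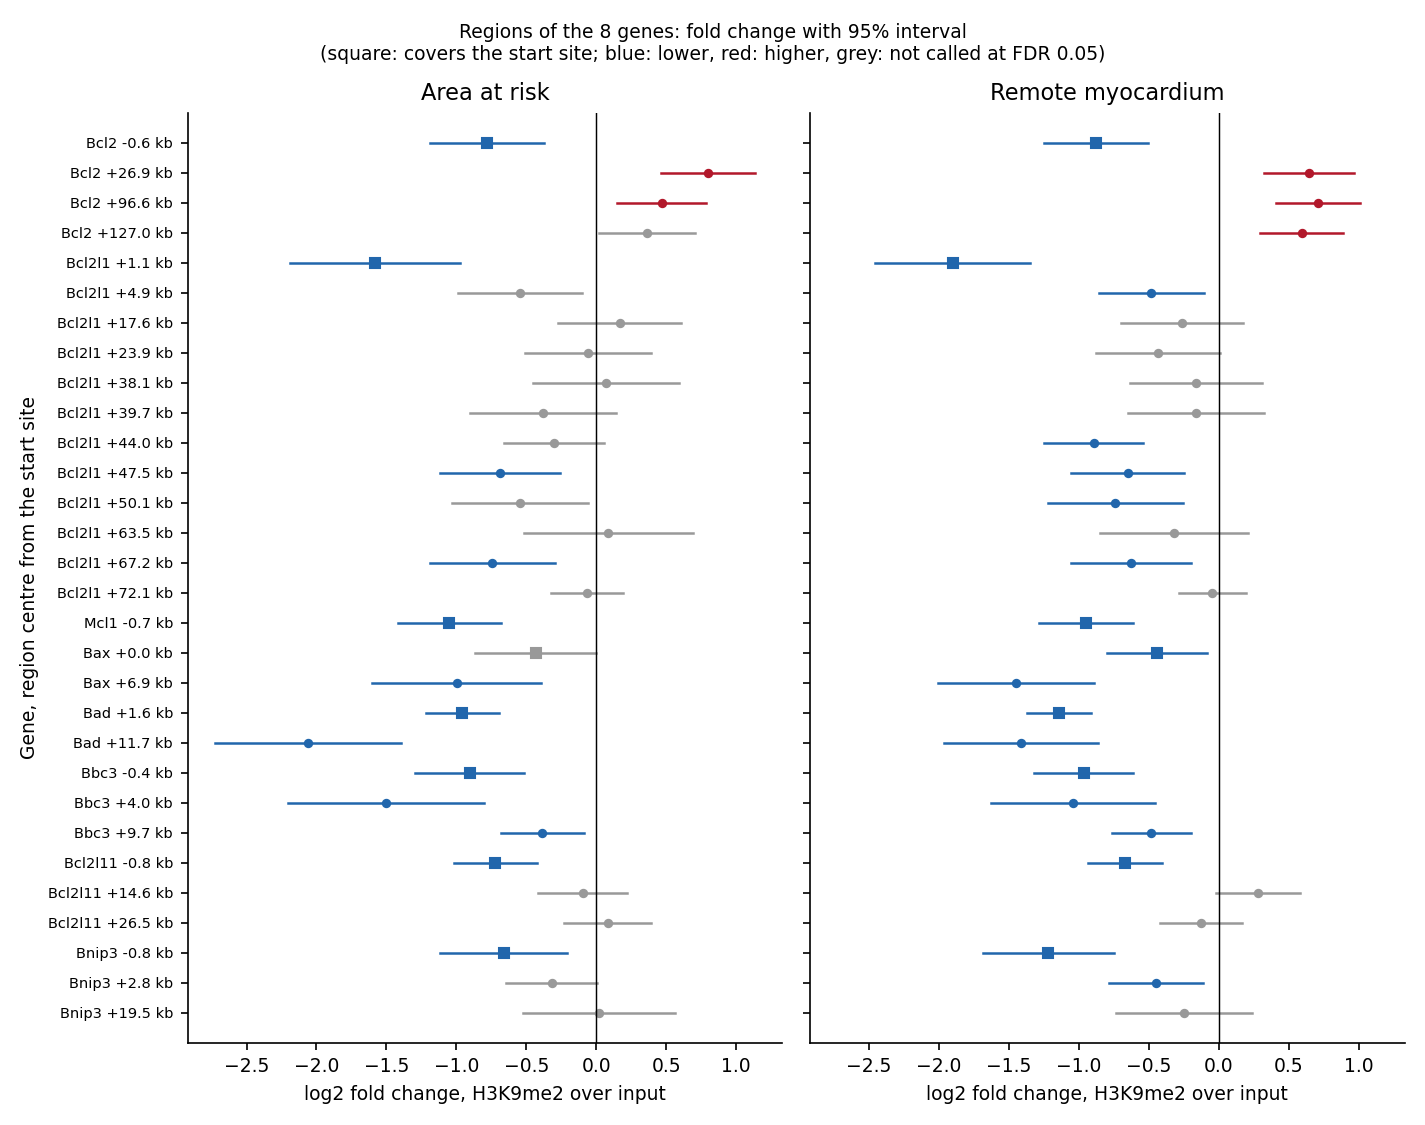
Log2 fold change of H3K9me2 over input (x axis) with its 95% interval at each tested region of the 8 genes. AAR is on the left and RM on the right. Regions are listed by distance of their centre, in kb, from the gene's most upstream promoter start. Squares are start-site regions; the red points are regions inside Bcl2, of which 2 are higher than input in AAR and 3 in RM.

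Inside Bcl2 the mark stood above input. The region 26.9 kb from the start (chr1:106686000-106688799) held 30.1, 36.9 and 50.4 CPM (lowest, median, highest) in AAR H3K9me2, against 16.5, 21.6 and 25.4 CPM in AAR input. RM H3K9me2 held 29.1, 32.7 and 37.4 CPM, against 18.3, 21.8 and 24.2 CPM in RM input. These groups did not overlap in either biopsy, and the log2 fold change was 0.80 ± 0.17 (SE; adjusted p = 0.000409, edgeR) in AAR and 0.65 ± 0.16 (adjusted p = 0.000646, edgeR) in RM. The region 96.6 kb from the start (chr1:106616200-106619199) was higher by 0.47 ± 0.16 in AAR (adjusted p = 0.0261, edgeR) and by 0.71 ± 0.15 in RM (adjusted p = 6.17e-05, edgeR), in 6 of 6 mice each. Its AAR call was lost without mouse 17, 22, 27 or 30 and with DESeq2, at values of 0.42 to 0.48 and adjusted p of up to 0.0897. The region 127 kb from the start (chr1:106585800-106588799) was higher in RM (0.59 ± 0.15, adjusted p = 0.000697, edgeR), and its AAR value of 0.36 did not pass (adjusted p = 0.116, edgeR). No other region of the 8 genes was called higher than input.

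Start and interior of Bcl2 were also set against each other mouse by mouse. The log2 ratio of H3K9me2 to input at the start minus that of the other regions of the gene was -1.36 ± 0.68 (SD, n = 6 mice) in AAR and -1.63 ± 0.50 in RM, with the start lower in 6 of 6 mice each time. For Bcl2l1 this difference was -1.46 ± 1.01 in AAR and -1.59 ± 0.63 in RM. For Bcl2l11 it was -0.75 ± 0.27 in AAR and -0.73 ± 0.54 in RM, and both genes had the start lower in 6 of 6 mice in each biopsy. Bnip3 had the start lower in 5 of 6 mice and Bbc3 in 4 of 6 mice in each biopsy. Bad and Bax, with 1 other region each, did not share this order. The difference was 0.98 ± 1.32 in AAR and 0.42 ± 0.64 in RM at Bad, with the start lower in 1 and 3 of 6 mice, and 0.43 ± 0.92 in AAR and -0.44 ± 1.50 in RM at Bax, with the start lower in 2 and 3 of 6. The other region of Bax (chr7:45463400-45466799) held 34 counts over all 24 libraries, overlaps another listed region and was too low to test. The other region of Bad, at its 3' end, also overlaps listed regions and held 0 CPM in its lowest AAR H3K9me2 library. That region of Bad held 367 counts over all 24 libraries and was lower than input in both biopsies, as given above. The Bcl2l1 start-site region held 415 counts. The orders at Bax, Bad and Bcl2l1 therefore all rest on few counts. These within-gene differences were not tested.

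Along Bcl2l1 the interior was lower than input at some regions. Of its 11 tested regions that cover none of its starts, 2 were lower in AAR and 5 in RM, and none was higher. Among all tested regions that cover no start of any gene, 8.77% were lower and 12.5% higher in AAR. In RM these shares were 15.8% and 22.6%. Distances are from the most upstream of its 3 annotated starts, and the region at 4.93 kb lies 290 bases from another start. The regions 47.5 and 67.2 kb from the start were lower in both biopsies, with log2 fold changes of -0.69 and -0.74 in AAR and of -0.65 and -0.63 in RM. The first of them lost its AAR call without mouse 27 (adjusted p = 0.0842, edgeR) or mouse 30 (adjusted p = 0.0559, edgeR), and the second, which also covers Cox4i2, lost its RM call without mouse 19 (adjusted p = 0.0703, edgeR) and with DESeq2 (adjusted p = 0.0528). The regions 44.0, 50.1 and 4.93 kb from the start passed the test in RM, with log2 fold changes of -0.89, -0.74 and -0.48, and did not pass in AAR, where the values were -0.30, -0.55 and -0.55. The RM call was lost without mouse 17 at 50.1 kb, and without mouse 22, 23 or 27 and with DESeq2 at 4.93 kb. Bnip3 had 1 region that passed in RM and not in AAR, 2.81 kb from its start, with -0.32 in AAR (adjusted p = 0.142, edgeR) and -0.45 in RM (adjusted p = 0.0245, edgeR), and its RM call was lost without mouse 17, 23 or 27 and with DESeq2. The interaction term was called at none of these 4 regions (edgeR).

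**Figure D3:**
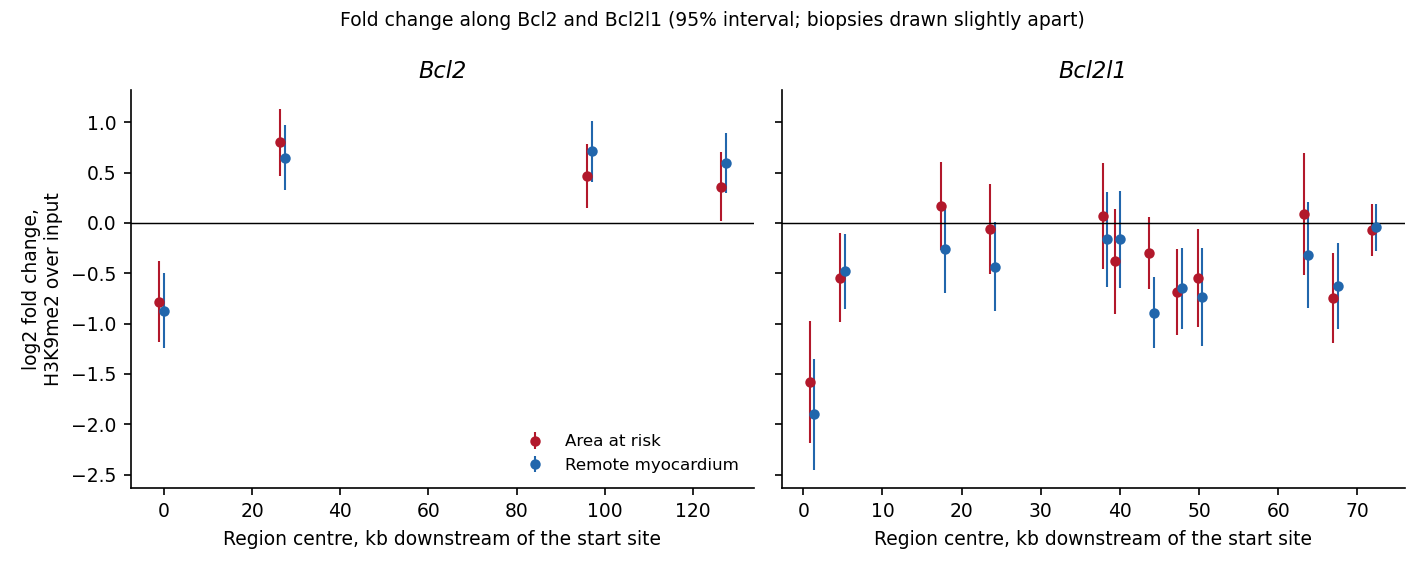
Log2 fold change of H3K9me2 over input (y axis, 95% interval) against distance of the region's centre from the start in kb (x axis) along Bcl2 and Bcl2l1, for AAR in red and RM in blue. Bcl2 changes sign between its start (-0.78 in AAR, -0.87 in RM) and 26.9 kb (0.80 in AAR, 0.65 in RM), while Bcl2l1 is lowest at its start.

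Summing all regions of a gene, those in the 2 kb margin included, gave 1 value per gene. The Bax sum takes in the region over Ftl1. The Bax start-site region alone did not pass in AAR (-0.43, adjusted p = 0.134, edgeR). In AAR, Bcl2 was higher than input (0.38 ± 0.10, SE), Bad, Mcl1, Bbc3, Bax and Bcl2l1 were lower (-0.91, -0.95, -0.58, -0.57 and -0.21), and Bnip3 and Bcl2l11 had values of -0.24 and -0.19 that did not pass, where 21.3% of 17654 genes were called higher and 21.0% lower. In RM, Bcl2 was higher (0.46 ± 0.09), the same 5 genes and Bnip3 were lower, from -1.07 at Bad to -0.36 at Bcl2l1, and Bcl2l11 at -0.12 did not pass, where 27.8% of 17621 genes were called higher and 27.3% lower (edgeR, adjusted p under 0.05 over all genes).

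The calls against input were largely shared by AAR and RM. Of the 30 regions tested in both, 13 were lower in both, 2 were higher in both, 9 passed in neither, and 6 passed in RM and not in AAR, 5 lower and 1 higher. Of the 40333 regions of the whole table tested in both, 10.4% were lower in both, 9.44% higher in both and 55.4% passed in neither, while 9.52% were lower and 11.2% higher with a call in RM and not in AAR. In the authors' deposited tables, 14 of the family's regions had an FDR under 0.05 for AAR H3K9me2 against input and 20 for RM H3K9me2 against input, where 17.2% and 28.5% of all 53386 regions did. All 14 and 19 of the 20 were also called here, and the other, beside Bad (chr19:6953200-6958599), was too low to test here. Called here and not there was the 3' region of Bbc3 in AAR (deposited FDR 0.0513). In RM these were the Bax start-site region (deposited FDR 0.0649) and the Bnip3 region 2.81 kb from its start (deposited FDR 0.0922).

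The comparison of AAR with RM asks whether the mark differed between the muscle made ischemic and muscle away from it. No region of the BCL2 family was called. Of 18 tested, 0 passed (edgeR), none had an unadjusted p under 0.05, and DESeq2 also called 0, where 0% of all 31526 regions were called and 4.00% had an unadjusted p under 0.05. Log2 fold changes of AAR over RM ran from -0.33 at the Mcl1 start to 0.42 at the Bcl2l1 region 44.0 kb from its start, with a median of -0.02.

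At the Mcl1 start, AAR H3K9me2 was 15.0 ± 1.91 CPM and RM H3K9me2 was 19.1 ± 6.72 CPM (SD, n = 6), with 3 mice higher in AAR and 3 lower, and the log2 fold change was -0.33 (95% interval -0.82 to 0.15). It was -0.17 without mouse 17 and -0.20 without mouse 19. Bcl2l1 had the smallest p of the family, at its region 44.0 kb from the start (chr2:152786000-152789399). That region held 18.0, 20.5 and 35.9 CPM (lowest, median, highest) in AAR H3K9me2, against 10.8, 16.9 and 33.8 CPM in RM H3K9me2, and the groups overlapped. Its log2 fold change was 0.42 (95% interval -0.04 to 0.88, adjusted p = 0.999, edgeR), and 4 of 6 mice were higher in AAR. The Bcl2l1 region 17.6 kb from the start was higher in AAR in 6 of 6 mice, with a log2 fold change of 0.39 (95% interval -0.11 to 0.90, adjusted p = 0.999, edgeR) that did not pass. The 95% intervals of the family reached at most 0.90 from 0 on the log2 scale. The start-site regions of Bcl2l1 and Bnip3 had too few H3K9me2 counts to be tested here.

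**Figure D4:**
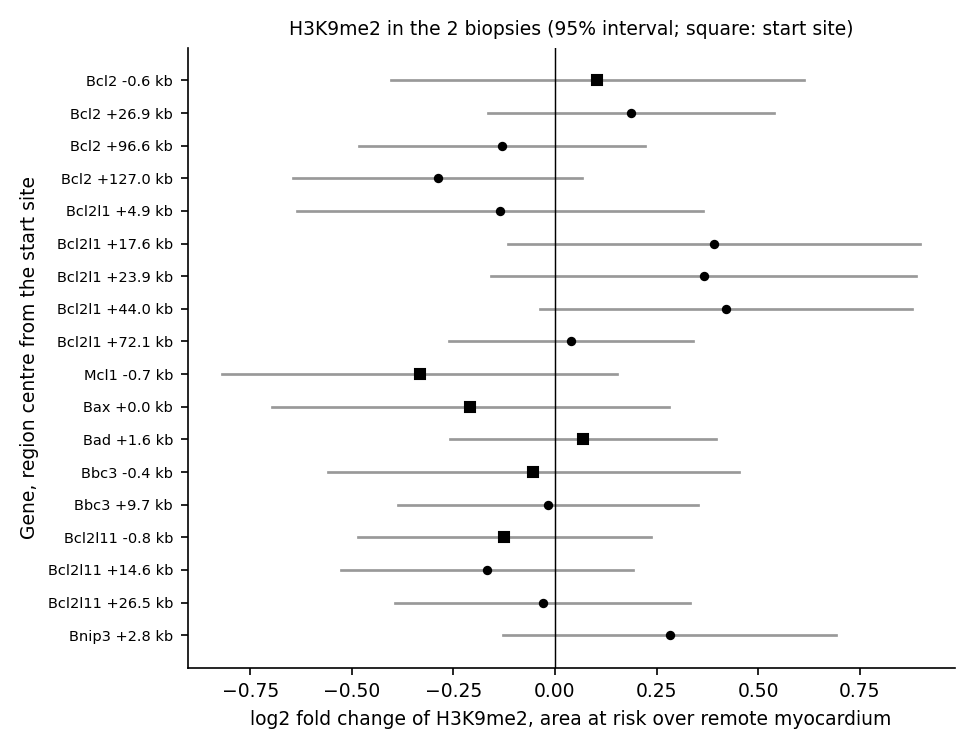
Log2 fold change of H3K9me2 in AAR over RM (x axis) with its 95% interval at the 18 tested regions of the family, listed by gene and by distance of the region's centre from the start in kb. All 18 intervals include 0.

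Input DNA and the input-corrected values gave no call either. AAR input over RM input was tested at 31 regions with 0 called (edgeR and DESeq2), where 0% of 42603 regions were called and 2.72% had an unadjusted p under 0.05. The Mcl1 start (-0.24, unadjusted p = 0.0412) and the Bcl2l11 region 26.5 kb from its start (-0.24, unadjusted p = 0.0457) had an unadjusted p under 0.05 (adjusted p = 1.00, edgeR), and the Mcl1 input was lower in AAR in 6 of 6 mice. The interaction term, H3K9me2 over input in AAR against the same in RM, was tested at 31 regions with 0 called (edgeR and DESeq2), where 0% of 42445 were called and 4.12% had an unadjusted p under 0.05. It had an unadjusted p under 0.05 at 1 region, Bcl2l1 44.0 kb from its start, with 0.61 (95% interval 0.08 to 1.13, adjusted p = 1.00, edgeR).

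Other genes of the mitochondrial death pathway were read in the same way, from lists of 47 genes of which 29 had a tested region. In AAR 20 of their 76 regions were lower than input and 4 higher, with a median log2 fold change of -0.21, and in RM 30 of 73 were lower and 1 higher, with a median of -0.29. Among all regions tested, 12.3% were lower and 11.4% higher in AAR, and 19.9% were lower and 20.6% higher in RM. The smallest p among the lower ones in AAR belonged to Foxo3 (-1.26), Trp53 (-0.92) and Foxo1 (-0.73), which encode transcription factors upstream of Bcl2l11 and Bbc3, and to Vdac2 (-1.27), a mitochondrial pore protein. In RM they belonged to Trp53 (-1.41), Foxo3 (-1.42), Bcl2l12 (-0.92) and the BH3-only gene Bmf (-0.99). Higher than input in AAR were 2 regions of the BH3-only gene Hrk (0.75 and 0.60), 1 of Bcl2l10 (0.44) and 1 of Bok (0.35), and in RM 1 of Bcl2l13 (0.60). Of the 3 genes with a higher region in AAR, 1 also had a region called lower there. Between AAR and RM, 0 of 48 H3K9me2 regions of these genes were called (edgeR), where 0% of all 31526 regions were called. None of the tested regions at marker genes of heart muscle cells, fibroblasts, endothelium and leukocytes was called between AAR and RM either. Tested regions lay at 4 of 8 heart muscle cell, 3 of 6 fibroblast, 5 of 6 endothelial and 3 of 6 leukocyte marker genes. The result concerns the mark at those genes and not how many such cells were present.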

How the data were processed

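H3K9me2 and input libraries of 2 biopsies from 6 mice were analysed in 4 groups of 6, with the mouse number taken from the labels. The authors deposited 4 tables of whole-number counts per region (build mm10), each with a log2 fold change, a log2 mean CPM, a p-value and an FDR, per the file headers. The submitters' processing notes list Bowtie2 2.2.2, SICER 1.1 and edgeR and give no roles. The deposited log2 fold change has the opposite sign to the one used here.

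Regions were assigned to genes with RefSeq coordinates. Start sites were those of the annotated promoters, which at Bcl2l1, Mcl1 and Bbc3 lie inside the gene's coordinates and not at their edge. Counts were fitted over all regions in edgeR 4.0.16 (R 4.3.3) with filterByExpr, TMM scaling and quasi-likelihood tests, adjusted over all regions tested at FDR 0.05. DESeq2 1.42.0, other scalings, no filter, sums per gene and each mouse left out were alternatives. The same mouse number means the same animal, so samples are paired by design; deviations of paired libraries correlated at -0.23 to 0.20. Log2 ratios per mouse added 1 CPM. All 8 genes are named; beyond start-site regions, those with the smallest p are named. Members and lists were chosen with earlier results of these data known. CPM rests on few counts per region, and p-values set a difference against the spread between libraries of different mice, which includes counting noise.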

Additional observations from a re-analysis of the deposited data

Results flagged for a closer look

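At the start-site regions of the 8 genes, 32 groups of 6 libraries were searched for a library far from the other 5, and chance marks about 1 in 20 such groups. Both libraries found were AAR H3K9me2 of mouse 30. At Bcl2l1 it held 13.35 CPM, where the next highest library held 6.01 CPM and the lowest 1.80 CPM. At Bcl2 it held 29.66 CPM, where the next highest held 18.4 CPM and the lowest 12.0 CPM. Without mouse 30 the log2 fold change of AAR H3K9me2 over input was -1.91 at Bcl2l1 (adjusted p = 0.000191, edgeR) and -1.03 at Bcl2 (adjusted p = 0.00131, edgeR), and with it -1.58 and -0.78.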

How the results depend on the processing

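With the mouse as a replicate block, 15 regions of the family were called against input in AAR and 21 in RM, the counts found without it, and 0 in the other comparisons; this paired fit changed no count. Leaving out each mouse in turn gave 11 to 14 calls in AAR, 18 to 20 in RM and 0 elsewhere. With counts summed per gene, 6 genes of 8 were called in AAR and 7 in RM, fewer because genes and not regions were counted. The start-site fold changes kept their direction against input in all 176 values (8 regions in 2 biopsies under 11 other settings), 9 of which lost the call, as given beside Bcl2, Bax and Bnip3. In the comparisons of AAR with RM, where nothing was called, values near 0 changed sign when a mouse was left out. For H3K9me2 the ranges were -0.1386 to 0.2094 at Bad, -0.0318 to 0.2822 at Bcl2 and -0.2294 to 0.1807 at Bbc3. For input they were -0.243 to 0.0227 at Bcl2l1, -0.0892 to 0.0885 at Bcl2 and -0.1044 to 0.0429 at Bnip3. For the interaction they were -0.1255 to 0.3679 at Bcl2, -0.1616 to 0.1344 at Bax (and -0.0005 without TMM), -0.1738 to 0.0803 at Mcl1, -0.1358 to 0.3324 at Bbc3 and -0.1531 to 0.0265 at Bcl2l11. The cause was not tested. Low H3K9me2 depth limits single regions, overlapping regions may lack reads, and regions shared with Gpr137, Plcb3, Ftl1, Sae1, Cox4i2 and Acoxl cannot be given to one gene.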
